A study of Mus musculus with 3 samples.

Results

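Antibody-secreting plasma cells, selected on their own UMI counts, were found among marrow cells of mouse tibia sorted around the vessel wall, and 327 of 12790 cells were assigned to them. A cell was counted when it had at least 500 genes and at most 10% mitochondrial UMIs (unique molecular identifiers, each standing for 1 captured transcript). It also needed at least 20 UMIs of Jchain, 2 of Mzb1 and 2 of Xbp1, no UMI of Cdh5 and at most 10 of Cxcl12, the last pair marking endothelial and stromal cells. The study examined marrow after loss of the lymphatic growth factor gene Vegfc from endothelial cells, with 1 single-cell library for each of 3 genotypes on a C57Bl/6JCrl background. WT mice are labelled wild type, FLOX mice were Vegfc flox/flox with no Cre named, and VC mice were Cdh5CreERT2;Vegfc flox/flox, in which a tamoxifen-activated Cre recombinase is driven by the VE-cadherin promoter. Mice of all 3 groups received tamoxifen by gavage. Cells were enriched for endothelial and leptin receptor-positive (LepR+) stromal cells after staining that included the leukocyte antigen CD45. The sources used here give neither the sort gates, the mice per library nor ages. Plasma cells are not a target of that sort, so their share of a library also depends on it.

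Plasma cells are the end stage of the B lineage. They translate immunoglobulin heavy and light chains on the endoplasmic reticulum (ER), where chaperones and disulfide isomerases fold them, quality control removes failures, and carriers take the rest to the Golgi. The transcription factor XBP1, activated by IRE1 splicing in the unfolded protein response, raises much of this machinery, while IRF4 and BLIMP1 (Prdm1) hold the plasma cell state. Long-lived plasma cells lodge in bone marrow, where CXCL12 retains them and APRIL, acting through BCMA (Tnfrsf17), keeps them alive by maintaining MCL1.

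The libraries held 17 plasma cells of 4318 cells for WT, 232 of 5734 for FLOX and 78 of 2738 for VC. Their share was 0.394% for WT (exact 95% interval 0.230 to 0.630), 4.05% for FLOX (3.55 to 4.59) and 2.85% for VC (2.26 to 3.54). WT had the smallest share, and its interval lay below those of the other libraries, while those of FLOX and VC met without overlapping. These intervals and all others below cover counting error only, and with 1 library per genotype no difference between genotypes was tested. A difference between sorts, mice or libraries cannot be told apart from the genotype.

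The marker genes were present as the label requires. Sdc1, the surface proteoglycan CD138 and the only marker outside the rule, had a UMI in 11 of 17, 208 of 232 and 73 of 78 cells in WT, FLOX and VC. Its level was 302, 332 and 275 CPM (UMI counts scaled to a total of 1000000), against 11.5, 4.76 and 8.03 CPM in B cells gated on Ms4a1. CPM is taken here over UMIs outside 392 immunoglobulin heavy and light chain genes, since these filled most of a typical plasma cell. Near the thresholds the Jchain rule was clear: the lowest member had 31, 35 and 45 Jchain UMIs in WT, FLOX and VC, while cells failing that condition alone had at most 1, 11 and 0. The Xbp1 and Mzb1 conditions were less clear. Xbp1 alone kept out 0, 14 and 2 cells, and members with at most 3 Xbp1 UMIs numbered 1, 17 and 5. Mzb1 alone kept out 4, 2 and 2 cells, and members with at most 3 Mzb1 UMIs numbered 5, 6 and 2. The Cdh5 condition alone kept out 2, 28 and 15 cells that met every other condition, of which 1, 14 and 9 had a single Cdh5 UMI.

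Depth differed between the libraries. The median plasma cell had 12670 UMIs and 1357 genes for WT, 20233.5 and 2596.5 for FLOX, and 28318.5 and 3127.5 for VC. Summed over cells, 162130 UMIs for WT, 2044265 for FLOX and 1060888 for VC lay outside immunoglobulin genes, so WT values are the least precise. The libraries shared 5 to 10 cell barcodes pairwise, and no plasma cell barcode was a plasma cell in both libraries. No doublet caller was run. Endothelial, LepR stromal, erythroid, T and NK, monocyte and megakaryocyte marker lists had a median of 0 to 2 UMIs per plasma cell in every library. In single VC cells the maxima were 30 UMIs of the endothelial list, 57 of the LepR stromal list and 52 of the T and NK list.

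3 cells stood apart with over 10 UMIs of a 9-gene neutrophil list, which had a median of 3, 2 and 1 UMIs per cell in WT, FLOX and VC. An IgG cell of FLOX held 1902 such UMIs and an IgM cell of FLOX held 563. A VC cell counted as IgM held 2077, with 500 UMIs of Elane and 263 of Mpo, and immunoglobulin genes made up 0.575% of its 50990 UMIs. That VC cell had no Sdc1 UMI and goes against the label. It held 93.8% of all neutrophil-list UMIs of the VC plasma cells, so results that rest on these 3 cells are also given without them.

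**Figure D1:**
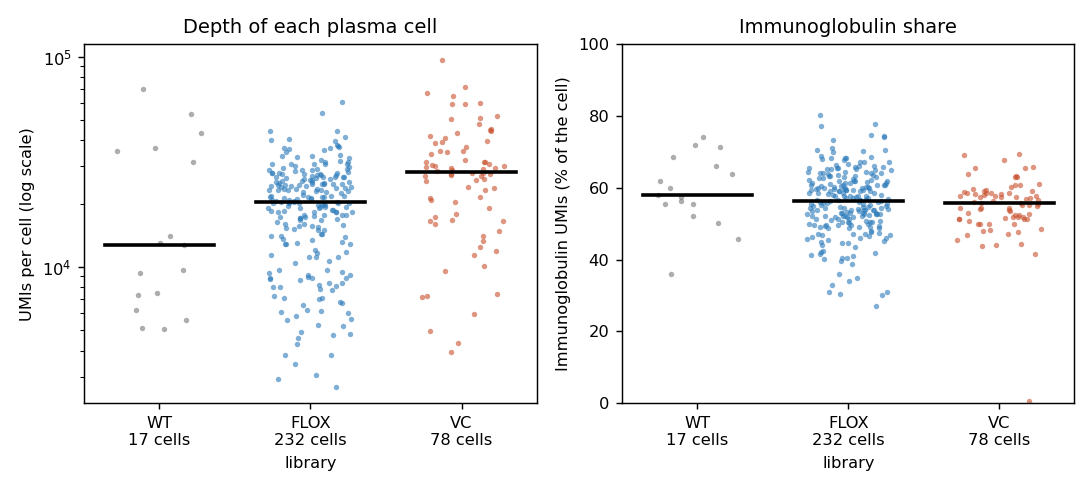
Each point is 1 plasma cell of the WT, FLOX or VC library, with UMIs per cell on a log axis at left and the percent of UMIs from immunoglobulin genes at right; black bars are medians. The medians of the immunoglobulin share sit between 55.6 and 57.8%, and 1 VC cell lies near 0.

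Immunoglobulin transcripts were the main product of these cells. Heavy and light chain genes gave a median of 57.8% of a cell's UMIs for WT (range 35.8 to 74.0), 56.4% for FLOX (27.0 to 80.2) and 55.6% for VC (0.575 to 69.5). The 3 medians differed by far less than the cells of any library differed among themselves. Although plasma cells were few, they held 51.5%, 83.1% and 81.7% of all immunoglobulin UMIs of the WT, FLOX and VC libraries. Immunoglobulin UMIs were also widespread outside plasma cells: an Igkc UMI occurred in 52.0%, 96.5% and 81.9% of Cdh5-gated endothelial cells. Whether these UMIs came from free RNA in the droplets was not tested. Constant-region classes were therefore called from the majority of a cell's heavy-chain UMIs rather than from any UMI.

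IgM was the leading class in every library. The heavy chain constant genes lie on chromosome 12 (mm10), from Ighm at 113418558-113422730 to Igha at 113254830-113260236 on the minus strand. Ighm gave over 50% of heavy-chain UMIs in 13 of 17 WT cells (76.5%, exact 95% interval 50.1 to 93.2), 166 of 232 FLOX cells (71.6%, 65.3 to 77.3) and 54 of 78 VC cells (69.2%, 57.8 to 79.2). IgG cells numbered 0 of 17 for WT (up to 19.5%), 46 for FLOX (19.8%, 14.9 to 25.5) and 10 for VC (12.8%, 6.32 to 22.3). IgA cells numbered 4 for WT (23.5%, 6.81 to 49.9), 19 for FLOX (8.19%, 5.003 to 12.5) and 14 for VC (17.9%, 10.2 to 28.3). The order of IgG and IgA was reversed between FLOX and VC, but for each class the intervals of the 2 libraries overlapped. No cell was called IgD or IgE, and 1 FLOX cell had too few heavy-chain UMIs for a call.

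The top class gave a median of 99.9 to 100% of a cell's heavy-chain UMIs. In 2 FLOX and 7 VC cells it gave 80% or less, and these cells also held UMIs of a second class. The 2 FLOX cells had 60990 and 37218 UMIs, against a library median of 20233.5. The VC cells had 27512 to 95919 UMIs against a median of 28318.5, and only the lowest lay under it. A VC IgG cell among them had only 27 heavy-chain UMIs. Whether such barcodes held more than 1 cell was not tested. Requiring over 80% kept 11 of the 14 VC IgA cells. Among IgG cells of FLOX, 18 used Ighg2b, 16 Ighg2c, 10 Ighg3 and 2 Ighg1, and in VC 7 used Ighg2b and 3 Ighg2c. By constant gene, lambda light chains were used by 1 of 17 WT cells (5.88%), 11 of 232 FLOX cells (4.74%) and 8 of 78 VC cells (10.3%), the rest being kappa. The FLOX and VC lambda cells each include 1 of the 3 cells that stood apart. Some FLOX and VC cells called kappa had a lambda gene as their majority light chain variable gene.

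**Figure D2:**
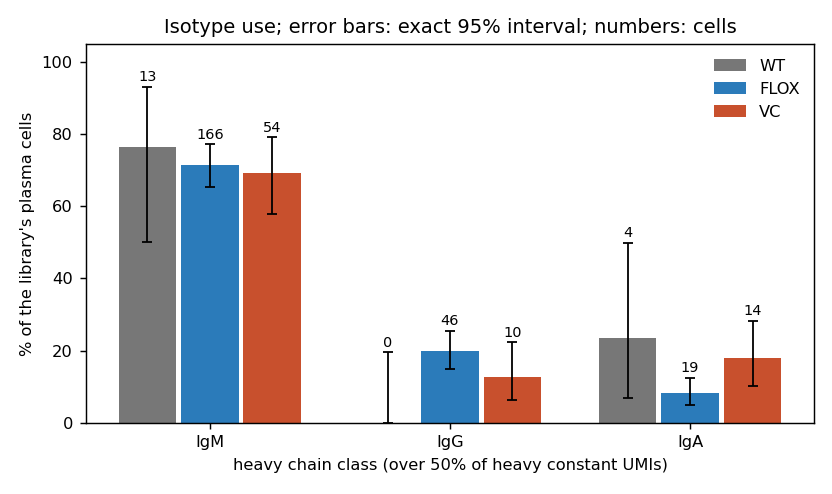
Bars are the percent of a library's plasma cells assigned to IgM, IgG or IgA for WT, FLOX and VC, and error bars are exact 95% binomial intervals. IgM leads in each library at 69.2 to 76.5%, and no IgG cell was found among the 17 WT cells.

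Variable genes showed repeated pairs within libraries. A heavy and a light chain variable gene could be assigned in 17 WT, 216 FLOX and 65 VC cells, which formed 15, 135 and 50 combinations of class, heavy and light gene. Of these, 33 combinations for FLOX recurred in 114 cells, 8 for VC in 23 cells, and 2 for WT in 4 cells. The most frequent was IgM Ighv1-80 with Igkv4-55 in 14 FLOX cells. IgM Ighv1-47 with Igkv9-124 was found in 9 FLOX cells, IgM Ighv1-9 with Igkv12-46 in 8 FLOX cells, and IgM Ighv7-3 with Igkv12-46 in 7 VC cells. IgM Ighv11-2 with Igkv14-126, second in number in FLOX and the pair known in mice from phosphatidylcholine-binding B-1 cells, occurred in 11 FLOX, 4 VC and 1 WT cells. Over the study, 180 combinations occurred in 1 library, 7 in 2 and 2 in all 3. Cells sharing a combination may be members of 1 clone, so they are not independent, and 3′ UMI counts do not read the junction that would decide it.

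The secretory machinery was examined as 102 measured genes in 5 lists ordered along the secretory route. Together they gave a median of 5.66% of a plasma cell's non-immunoglobulin UMIs for WT (4.01 to 8.28), 6.06% for FLOX (2.92 to 13.3) and 5.89% for VC (1.72 to 10.98). The corresponding medians in Ms4a1 B cells were 1.18, 1.10 and 1.07%, and in Cdh5-gated cells 1.07, 1.14 and 1.17%. The rule chose the cells on their own transcripts, so contrasts with other cells are a description with no test. The other gated cells were pooled and mostly endothelial: 7839 Cdh5-gated, 1675 Cxcl12 Adipoq stromal, 200 Ms4a1 B and 74 surrogate light chain B cells. Of 2539 genes that averaged 50 CPM or more in plasma cells, 19.8% were at least 2-fold above them in all 3 libraries. Another 4.49% were at least 2-fold below. Against that background, the same size was reached by 16 of 22 genes for ER entry, 9 of 11 for N-glycan transfer, 17 of 23 chaperones and folding enzymes, 12 of 15 for ER-associated degradation, and 10 of 24 for ER-Golgi transport. No tested gene of the 5 lists was 2-fold below.

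**Figure D3:**
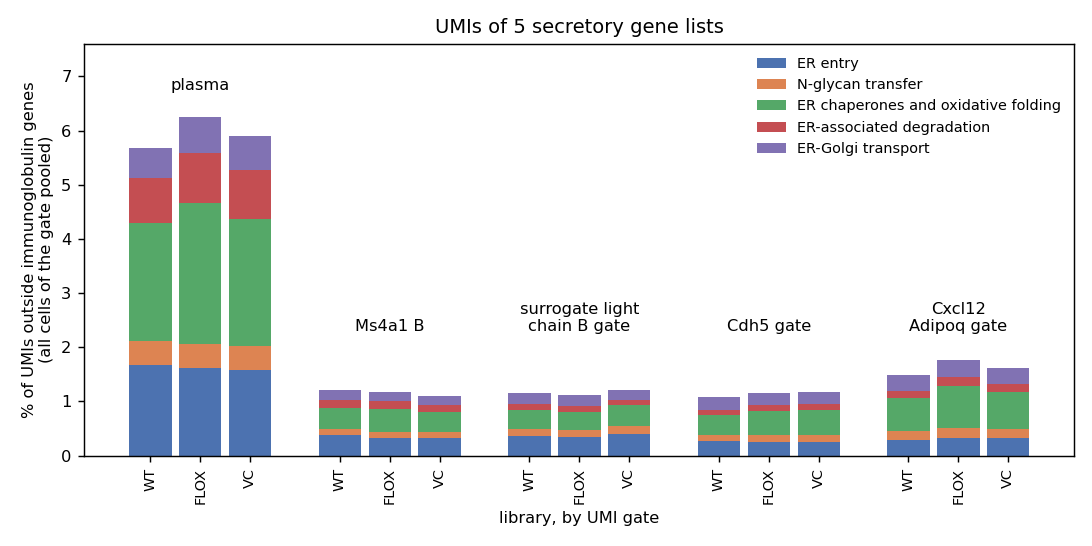
Stacked bars give the pooled percent of non-immunoglobulin UMIs from 5 secretory gene lists in plasma cells and 4 other gates of each library. Plasma cells reach 5.68 to 6.25%, and the largest part is chaperones and folding enzymes at 2.19 to 2.60%.

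At ER entry, Sec61b, a subunit of the protein-conducting channel, stood at 1609.8 CPM for WT (exact 95% interval 1420.4 to 1817), 1461 for FLOX (1409 to 1515) and 1607 for VC (1532 to 1685). Ssr4, a subunit of the translocon-associated TRAP complex, stood at 3892, 3506 and 3375 CPM, and Sec11c, a signal peptidase subunit, at 2535, 2514 and 2412 CPM. In Ms4a1 B cells Ssr4 was 160.4, 195 and 108 CPM. Among folding factors, Hsp90b1, the ER member of the HSP90 family, stood at 4743, 5568 and 4753 CPM. Txndc5, a protein disulfide isomerase, stood at 2665, 2402 and 2073 CPM against 91.7, 71.4 and 80.3 in Ms4a1 B cells. These levels lay close together in the 3 libraries. Hspa5, the ER HSP70 chaperone BiP, was an exception, with 1684 CPM for WT (1490.0 to 1896), 3812 for FLOX (3727 to 3897) and 3761 for VC (3645 to 3879.6), so that WT lay below the others.

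For quality control, Derl3, a derlin of the retrotranslocation machinery, stood at 289.9, 447 and 403 CPM for WT, FLOX and VC and at 5.73, 4.76 and 8.03 in Ms4a1 B cells. Edem1, a lectin that commits misfolded glycoproteins to degradation, stood at 826, 736 and 747 CPM. Herpud1 and Sel1l, components of the HRD1 ligase complex, went opposite ways in WT: Herpud1 was 660.0 CPM in WT against 2098 and 2342, and Sel1l 2455 against 977 and 955. On the way to the Golgi, the cargo receptor Lman1 stood at 543, 722 and 636 CPM. Between FLOX and VC, 0 of the secretory genes differed by 1.5-fold or more in either direction, where 2.17% of all tested genes were higher in VC and 1.5% lower. The median log2 ratio of VC to FLOX was -0.06 for ER entry, -0.04 for N-glycan transfer, -0.21 for chaperones, -0.07 for degradation and -0.03 for transport, beside -0.03 over all genes.

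Regulators of the unfolded protein response stood a median of 1.25, 1.55 and 1.58 on the log2 scale above the other gates of WT, FLOX and VC. The sensors Ern1, Atf6 and Eif2ak3 stood at 55.5, 71.4 and 65.0 CPM, at 204, 216 and 195 CPM, and at 61.7, 63.6 and 78.2 CPM for WT, FLOX and VC. Dnajb9, an ER co-chaperone and XBP1 target, stood at 191 CPM for WT, 448 for FLOX and 481 for VC, so WT was low. Ddit3, which encodes the stress factor CHOP, had only 18.5 CPM for WT (3.82 to 54.1), 51.4 for FLOX (42.0 to 62.2) and 63.2 for VC (48.9 to 80.2), below the 124 and 100.4 CPM of Ms4a1 B cells for FLOX and VC. In this list 6 of 9 tested genes reached the 2-fold size over other cells (19.8% of all genes did), Xbp1 among them, which the rule used.

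Promoters of some folding genes carry the ER stress response element, a binding motif through which ATF6 and XBP1 act. The 300-base windows below, from 250 bases before to 50 after the transcription start (RefSeq, GRCm38.p6), are shown as examples, chosen for holding this element from the 9 secretory genes that had it. High level was not common to all 9: Canx, also with a match, had a log2 ratio over the other gates of -0.58 in its lowest library. Each is written 5′ to 3′ on the gene's strand, and capitals mark a match on either strand to CCAAT and CCACG separated by 9 bases.
Derl3, chr10:75893148-75893447, plus strand: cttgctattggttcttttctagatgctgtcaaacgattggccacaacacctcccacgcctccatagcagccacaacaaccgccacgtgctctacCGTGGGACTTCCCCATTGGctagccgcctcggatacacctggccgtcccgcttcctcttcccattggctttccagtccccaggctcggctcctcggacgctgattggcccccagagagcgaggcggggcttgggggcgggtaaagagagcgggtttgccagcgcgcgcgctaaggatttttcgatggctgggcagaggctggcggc
Creld2, chr15:88819396-88819695, plus strand: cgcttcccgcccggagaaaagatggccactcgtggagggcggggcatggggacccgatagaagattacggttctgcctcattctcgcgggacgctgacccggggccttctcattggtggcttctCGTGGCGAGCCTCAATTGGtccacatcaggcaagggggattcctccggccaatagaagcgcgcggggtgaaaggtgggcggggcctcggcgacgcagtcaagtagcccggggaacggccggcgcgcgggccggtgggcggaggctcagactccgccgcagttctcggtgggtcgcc
Hsp90b1, chr10:86705395-86705694, minus strand: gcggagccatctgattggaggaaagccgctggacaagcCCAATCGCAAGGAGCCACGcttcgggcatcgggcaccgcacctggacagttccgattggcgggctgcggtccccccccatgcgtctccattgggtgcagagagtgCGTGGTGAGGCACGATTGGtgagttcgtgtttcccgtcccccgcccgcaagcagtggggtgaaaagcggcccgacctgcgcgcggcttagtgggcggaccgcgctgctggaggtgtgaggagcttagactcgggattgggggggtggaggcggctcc
Hspa5, chr2:34771840-34772139, plus strand: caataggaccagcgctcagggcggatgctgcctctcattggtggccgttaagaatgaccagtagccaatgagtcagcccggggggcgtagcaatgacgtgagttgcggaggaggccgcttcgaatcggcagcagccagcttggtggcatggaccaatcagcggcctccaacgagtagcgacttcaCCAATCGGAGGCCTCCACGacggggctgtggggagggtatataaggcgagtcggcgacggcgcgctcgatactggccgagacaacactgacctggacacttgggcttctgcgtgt
Hsp90b1 holds 2 matches and the others 1 each. Of the 102 secretory genes, 84 were found in the table by symbol. The element was in 7 of 19 chaperone and folding genes (36.8%) and 2 of 14 degradation genes (14.3%), and in none of the 15 ER entry, 10 N-glycan or 26 transport genes. Of 27025 gene symbols, 37 (0.137%) had it. The shorter element, ATTGG and CCACG separated by 1 base and searched on both strands, was in 3 of the 84 genes (3.57%) and 0.0444% of all. The XBP1 core TGACGTGG, on either strand, was in 10 (11.9%) and 0.714% of all, and 6 of these 10 were ER-Golgi transport genes. A match is a description of the window and not a bound site.

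The identity genes of the plasma cell state were high in all 3 libraries. Prdm1 stood at 234, 225 and 213 CPM for WT, FLOX and VC, and at most 4.76 CPM in Ms4a1 B cells. Irf4 stood at 333 CPM for WT (250.2 to 435), 196 for FLOX (177 to 216) and 295 for VC (263 to 329.6). Irf4 was 1.51-fold higher in VC than in FLOX, and the intervals of the 2 libraries did not overlap. All 15 tested identity genes, 3 of which the rule used, were at least 2-fold above the other gates, beside 19.8% of all tested genes. Of the 18 genes of the B cell list, only 6 averaged 50 CPM or more in plasma cells and were tested. Of these, 5 were at least 2-fold above the other gates and 0 below, beside 19.8% and 4.49% of all tested genes. Genes under 50 CPM in plasma cells could not be counted as 2-fold below. Transcription factors that maintain the B cell state had few UMIs: Pax5 had 6.17, 1.957 and 3.77 CPM against 986, 847 and 667 in Ms4a1 B cells, and Ebf1 had 12.3, 19.1 and 26.4. Cd74, the invariant chain of MHC class II, stayed high at 7142, 7129 and 5792 CPM, and Cd79a, a signalling chain of the B cell receptor, stood at 629, 824 and 870.0 CPM.

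Some survival receptors, though not all, were higher in the plasma cells than in B cells. Tnfrsf17, which encodes BCMA, the APRIL receptor of plasma cells, stood at 339 CPM for WT (256 to 442), 304 for FLOX (280.4 to 329) and 337 for VC (303 to 373). The 3 intervals overlapped. A Tnfrsf17 UMI was found in 15 of 17, 179 of 232 and 72 of 78 plasma cells, in no Ms4a1 B cell, and in 0.0335, 0.128 and 0.0581% of Cdh5-gated cells. Thinned to 2000 non-immunoglobulin UMIs per cell, which left out 2, 10 and 0 plasma cells, the shares were 66.7, 38.7 and 51.3%. Tnfrsf13b, which encodes TACI, a receptor for APRIL and BAFF, stood at 321, 402 and 360.1 CPM, close to the 338, 252 and 245 of Ms4a1 B cells. Tnfrsf13c, the BAFF receptor, ran the other way, with 111, 99.3 and 99.0 CPM in plasma cells and 573, 718 and 534 in Ms4a1 B cells.

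Cd28, a costimulatory receptor with a survival role in plasma cells, stood at 37.0 CPM for WT (13.6 to 80.5), 95.4 for FLOX (82.5 to 109.8) and 109 for VC (90.4 to 131), and had no UMI in Ms4a1 B cells. Cxcr4, the CXCL12 receptor, stood at 30.8 CPM for WT (10.01 to 71.97), 114 for FLOX (99.8 to 129.6) and 95.2 for VC (77.5 to 116). For both genes the pooled WT level, which is scaled to UMIs, was the lowest. Detection by cell is a different measure and depends on depth, and WT cells were the shallowest. Thinned to equal depth as above, a Cd28 UMI was in 6.67, 16.7 and 15.4% of cells and a Cxcr4 UMI in 20, 20.7 and 19.2%. The WT shares were 1 and 3 of 15 cells, with exact 95% intervals of 0.169 to 31.9% and 4.33 to 48.1%. They cannot place WT against the other libraries. In Ms4a1 B cells thinned alike, a Cxcr4 UMI was more frequent, in 34.7, 46.9 and 40% of cells. Itga4, the alpha chain of VLA-4, stood at 302, 300.4 and 233 CPM, and Itgal, the alpha chain of LFA-1, at 197, 171 and 141. At equal depth an Itga4 UMI was in 33.3, 36.5 and 29.5% of plasma cells and in 38.7, 48.4 and 36.7% of Ms4a1 B cells. For Itgal the shares were 6.67, 22.5 and 25.6% in plasma cells and 4, 4.69 and 5% in Ms4a1 B cells. S1pr1, the egress receptor, was near 0, with 1, 5 and 1 cells holding a UMI. Klf2, a regulator of trafficking genes, had 6.17, 54.3 and 37.7 CPM against 719 to 1418 in Ms4a1 B cells. In the list of survival and adhesion genes 11 of 15 tested were at least 2-fold above other cells and 4 at least 2-fold below. Over all tested genes the shares were 19.8% and 4.49%. Those below included Il6st, the IL-6 signal transducer, which stood at 142, 92.9 and 83.9 CPM. None of the list differed by 1.5-fold between FLOX and VC, where 2.17% of all tested genes were higher in VC and 1.5% lower.

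Mcl1, the anti-apoptotic protein on which plasma cells depend, stood at 968 CPM for WT (823 to 1132), 968 for FLOX (926 to 1012) and 757 for VC (705 to 811). The pooled VC level lay 1.28-fold below FLOX, under the 1.5-fold size. In WT 62 of the 157 UMIs lay in 1 cell, and by cell the median was lowest in WT, at 583, 762 and 680 CPM. Bcl2 stood at 92.5, 232 and 193 CPM. Bcl2l1, which encodes BCL-XL, was close to the detection limit in all 3 libraries, with 2, 16 and 4 cells holding a UMI. Bcl2l11, the pro-apoptotic protein BIM, stood at 37.0, 58.2 and 38.6 CPM. Casp12, an ER-associated caspase, had a UMI in 1 of 327 cells.

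**Figure D4:**
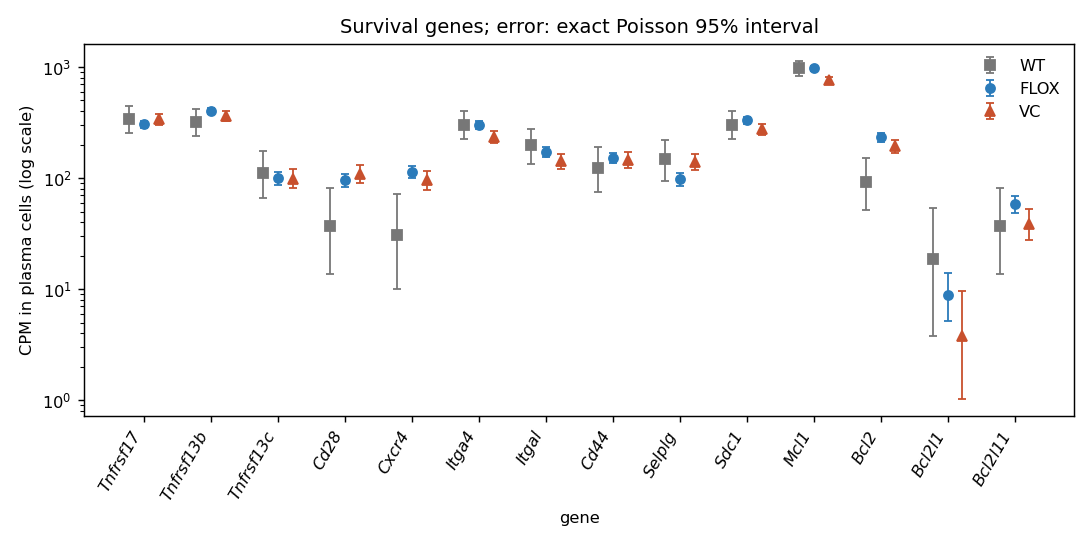
Points are the level of survival receptors, adhesion genes and BCL2 family genes in the plasma cells of each library, in CPM on a log axis, with exact Poisson 95% intervals as bars. Tnfrsf17 sits at 304 to 339 CPM in the 3 libraries, whereas the pooled levels of Cd28 and Cxcr4 are lowest in WT. By a different measure, the share of cells with a Cxcr4 UMI at equal depth is 20, 20.7 and 19.2% for WT, FLOX and VC. The WT share is 3 of 15 cells (4.33 to 48.1%).

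Some surface genes that vary among plasma cells differed in level between WT and the other libraries. Ly6c2 stood at 11867 CPM for WT, 2707 for FLOX and 2736 for VC, and Cd52 at 5909, 1586 and 1695. Both were highest in WT, and both vary strongly from cell to cell: Ly6c2 ranged from 0 to 48951 CPM among WT cells and from 0 to 33353 among FLOX cells. Epcam, an adhesion molecule, was 574, 318 and 305 CPM and had at most 9.51 CPM in Ms4a1 B cells. Prg2, which encodes eosinophil major basic protein, was 481 CPM for WT, 1387 for FLOX and 1154 for VC. By the rule for 1 library against both others, 249 of 2539 genes (9.81%) were higher and 287 (11.3%) lower in WT, which has the fewest cells. In 1 WT cell alone lay all 40 Stmn1 UMIs and 41 of the 44 Top2a UMIs, both genes of the cell cycle.

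Heavy chain class was the contrast that could be tested, because FLOX and VC each held IgM, IgG and IgA cells. UMIs were summed by library and class, which gave 7 sums of at least 5 cells, and edgeR's quasi-likelihood test with the library as a block compared the classes over 3079 genes. The fit had 2 residual degrees of freedom, so single calls rest on few sums. Values with an SE and an adjusted p below are from this fit, with Benjamini-Hochberg adjustment over all genes. Nothing says that the libraries come from separate mice beyond their genotypes, and p-values measure the spread between these sums. Against IgM, 46 genes were higher in IgA (1.49% of those tested) and 54 lower (1.75%), and 17 were higher in IgG (0.552%) and 17 lower (0.552%). Against IgA, 32 genes were higher in IgG (1.04%) and 22 lower (0.715%). DESeq2 called 25, 10 and 17 genes in the 3 contrasts, all of them among the genes called by edgeR, and without the library block 27, 3 and 2 were called.

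Receptors known from mucosal homing were higher in IgA than in IgM cells. Ccr10, the receptor for CCL28 and CCL27, stood in IgA cells at 135 CPM for WT, 424 for FLOX and 168 for VC, and in IgM cells at 7.996, 18.3 and 32.3 CPM. A Ccr10 UMI was found in 13 of 19 FLOX and 13 of 14 VC IgA cells, 18 of 166 and 15 of 54 IgM cells, and 1 of 46 and 1 of 10 IgG cells. The pooled IgA level lay above the other classes in each library, the WT one resting on 5 UMIs of 1 cell, with a log2 fold change over IgM of 3.75 (SE 0.46, adjusted p = 0.0014). Ccr9, the receptor for the gut chemokine CCL25, stood at 108, 107 and 113 CPM in IgA and at 0, 7.03 and 1.41 CPM in IgM cells, a log2 fold change of 4.57 (SE 0.67, adjusted p = 0.00402). A Ccr9 UMI was in 4 of 19 FLOX and 6 of 14 VC IgA cells, and the WT IgA level was 4 UMIs of 1 cell. Ctla4, an inhibitory receptor of the CD28 family, was higher in IgA by 1.94 on the log2 scale (SE 0.24, adjusted p = 0.0014), and Cd28 itself by 1.27 (SE 0.23, adjusted p = 0.0122). Under DESeq2 the adjusted p of Ccr10 was 0.16 and that of Cd28 0.47. Of the genes named here for IgA against IgM, those called by DESeq2 as well were Ccr9, Ctla4, Bst2, Glipr1, Cd79a, Cd74 and Jun, and the others lost their call. Without the library block, the calls of Ccr9, Ccr10, Ctla4, Bst2, Glipr1, Sdc4, Stt3b, H2-D1, Jun, Ms4a1 and Cd79a held and the others were lost.

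Further genes higher in IgA than in IgM were Bst2, which encodes the antiviral protein tetherin (log2 1.41, SE 0.17, adjusted p = 0.0014), Glipr1 (1.67, SE 0.20) and Sdc4, a syndecan (1.32, SE 0.21). Prdm1 was higher by 0.76 (SE 0.16, adjusted p = 0.0278) in the fit, though its WT IgA level of 54.0 CPM lay below the WT IgM level of 288. In the secretory lists, 1 of 22 ER entry genes (Sec11c), 2 of 15 degradation genes (Edem1, Edem2) and 1 of 25 transport genes (Lman1) were higher, by 0.53 to 0.73 on the log2 scale, 0 of 24 chaperones passed, and Stt3b, a catalytic subunit of oligosaccharyltransferase, was lower by 1.61 (SE 0.25, adjusted p = 0.0045). Jchain, which joins IgA dimers and IgM pentamers, was used by the rule and is given without a test: 163348, 171541 and 170176 CPM in IgA and 23908, 104986 and 83659 in IgM cells of WT, FLOX and VC.

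Lower in IgA than in IgM were 4 of 15 class I presentation genes and 4 of 11 immediate early genes, with none higher in either list, beside 1.75% lower and 1.49% higher over all genes tested. B2m, the class I light chain, stood at 3642, 2991 and 3356 CPM in IgA and 9339, 4803 and 5298 in IgM cells of WT, FLOX and VC (log2 -0.54, SE 0.11, adjusted p = 0.023), and H2-D1 fell by 0.84 on the log2 scale (SE 0.14, adjusted p = 0.00628). IgA lay below IgM in every library for both. Jun stood at 701, 1397 and 1099 CPM in IgA and 2607, 3191 and 3400.2 in IgM cells (log2 -1.27, SE 0.14, adjusted p = 0.0014). Cd74 and Ms4a1, from the B cell list, were lower as well, with log2 fold changes of -0.76 (SE 0.10) and -1.64 (SE 0.32), while Cd79a was higher by 0.97 (SE 0.15). Il10, the anti-inflammatory cytokine, had 32.0, 64.0 and 171 CPM in IgM cells and 0, 0 and 9.86 in IgA cells, with a UMI in 43 of 166 FLOX and 23 of 54 VC IgM cells and in 0 of 19 and 1 of 14 IgA cells.

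All 100 genes called between IgA and IgM had the same direction in FLOX and in VC, which the fit used. The 4 WT IgA cells were too few to enter it. Among the 73 called genes with at least 10 UMIs over the WT IgM and IgA cells, 55 had the same direction in WT.

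Against IgM, IgG cells were higher for several surface genes and a few secretory genes. Ly6a, a GPI-anchored surface protein also known as Sca-1, stood at 5837 and 5380.1 CPM in IgG cells of FLOX and VC against 2215 and 2569.9 in IgM (log2 1.27, SE 0.12, adjusted p = 0.000329). Ly6c2 stood at 7061 and 5223 CPM in IgG and at 1521 and 2734 in IgM (log2 1.63, SE 0.22, adjusted p = 0.00289). WT IgM cells had 15080.5 CPM of Ly6c2, above both IgG sums, and without the library block the log2 value was -0.03. Slpi, a secreted protease inhibitor, stood at 20678 CPM in FLOX IgG and 5852 in VC IgG cells, against 4632 and 3039 in IgM (log2 1.65, SE 0.25, adjusted p = 0.00505). By cell, the Slpi medians of FLOX and VC were 11093 and 3343 CPM in IgG and 2943 and 2122 in IgM. Of the 856 VC IgG UMIs, 285 lay in 1 cell. Ssr4, Prdx4 (an ER peroxiredoxin) and Edem2 were higher in IgG than in IgM by 0.66, 0.81 and 1.02 on the log2 scale, and the integrin gene Itga4 by 0.89 (SE 0.16, adjusted p = 0.0203). In the secretory lists, 1 of 22 ER entry, 1 of 24 chaperone, 1 of 15 degradation and 0 of 25 transport genes were higher, beside 0.552% of all genes. Stt3b, 1 of 11 N-glycan transfer genes, was lower by 2.00 on the log2 scale (SE 0.23, adjusted p = 0.00141).

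Several genes were lower in IgG than in IgM cells. Cox6a2, the muscle-type subunit of cytochrome c oxidase, had 233 UMIs in FLOX IgM and 149 in VC IgM cells and 0 in the IgG cells of both. At a floor of 3 UMIs per sum, IgM was at least 25.2-fold higher in FLOX and at least 10.2-fold higher in VC. Cd83, an activation marker of B cells, was at least 9.73-fold and 5.69-fold higher in IgM than in IgG. Irf8, a B cell transcription factor, stood at 112 CPM in FLOX IgM and 82.9 in VC IgM against 30.4 and 13.7 in IgG (log2 -1.99, SE 0.33, adjusted p = 0.0115). Atf5, a factor of the integrated stress response, and Slc3a2, a chain of amino acid transporters, were lower, with log2 fold changes of -3.13 (SE 0.42) and -0.96 (SE 0.13). Of the genes named for IgG against IgM, Stt3b left aside, DESeq2 also called Ly6a, Ly6c2, Edem2, Cox6a2 and Cd83, and without the library block none of those was called. Between IgG and IgA, Ly6c2 and Mt1, a metallothionein, were higher in IgG by log2 2.82 (SE 0.24, adjusted p = 9.62e-05) and 1.79 (SE 0.13, adjusted p = 2.72e-05), and Ccr10 was lower (log2 -5.23, SE 0.72, adjusted p = 0.00286). DESeq2 called all 3 of these, and without the library block the call of Ccr10 held while those of Ly6c2 and Mt1 were lost.

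**Figure D5:**
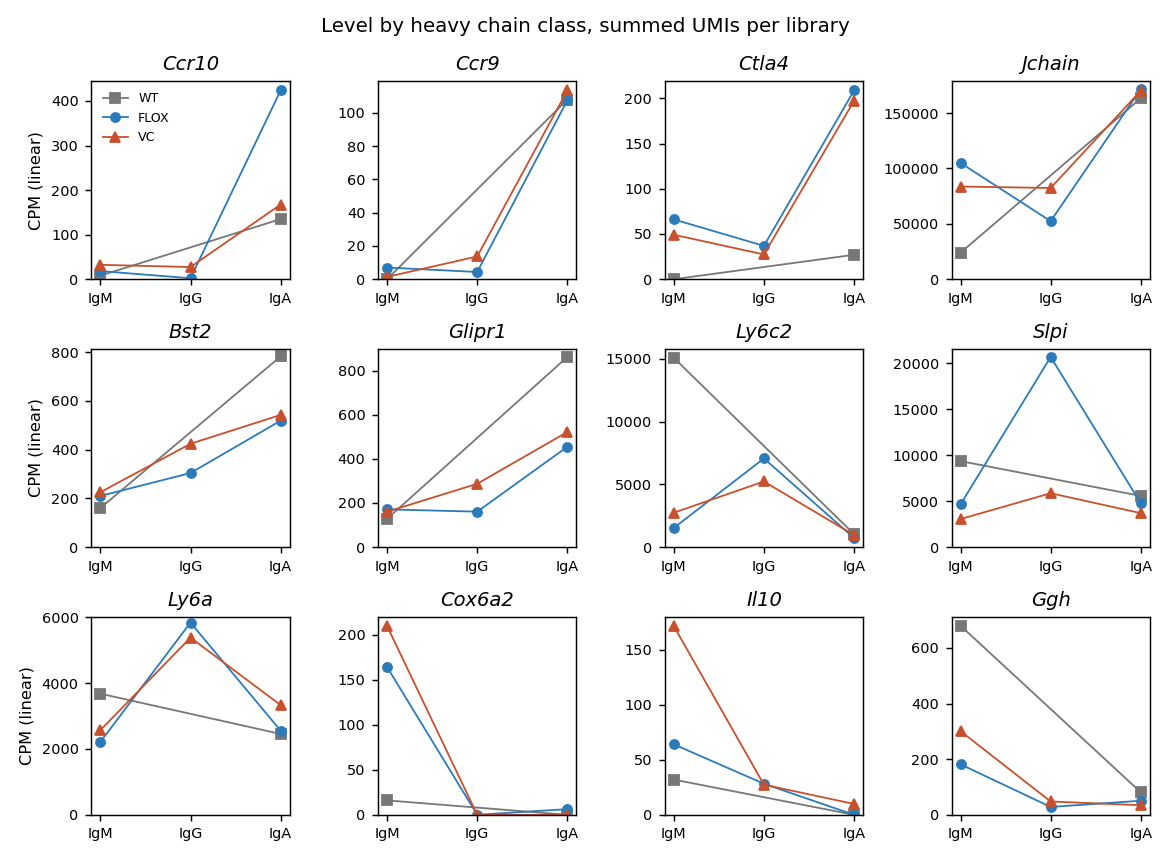
Each panel gives 1 gene's CPM on a linear axis in IgM, IgG and IgA cells, with squares for WT, circles for FLOX and triangles for VC; WT has no IgG point and its IgA point rests on 4 cells. Ccr10, Ccr9 and Ctla4 peak in IgA, Ly6a in IgG, and Cox6a2 and Il10 in IgM.

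The VC library was compared with both others by size alone. A gene counted when VC was at least 1.5-fold above or below WT and FLOX and by more than those 2 differed. Of 2539 genes, 15 were higher in VC (0.591%) and 17 lower (0.67%). Against FLOX alone, the library with the most plasma cells, 55 were higher (2.17%) and 38 lower (1.5%). Without the 3 cells that stood apart, 9 were higher than both and 35 higher than FLOX.

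Il10 stood at 24.7 CPM for WT (6.72 to 63.2), 50.9 for FLOX (41.6 to 61.6) and 121 for VC (101 to 143), with a UMI in 3 of 17, 50 of 232 and 28 of 78 cells. VC was highest, and its interval lay above both others. Within IgM cells the level was 32.0, 64.0 and 171 CPM, in the same order. When cells with 3 or more UMIs of other cell types' markers were left out, which kept 1, 66 and 15 cells, the log2 ratio of VC to FLOX became -1.50. Vpreb3, a B lineage gene, stood at 37.0, 66.5 and 121 CPM, and Nfkbiz, an NF-kappaB regulator, at 92.5, 111 and 180.0. Cyp4f18, a cytochrome P450 of lipid mediators, stood at 49.3, 65.1 and 103 CPM. Elane, Mpo, Prtn3 and Ctsg, granule genes of neutrophil precursors, were also on the list, but 500 of 501, 263 of 264, 658 of 660 and 226 of 229 of their VC UMIs lay in the cell that goes against the label.

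Slpi stood at 8481 CPM for WT (8038 to 8941), 8267 for FLOX (8143 to 8393) and 3549.9 for VC (3437 to 3665), 2.33-fold lower for VC than for FLOX. It varied widely among cells, from 0 to 83728 CPM in FLOX and from 0 to 30394 in VC, so that counting intervals are narrower than the spread between cells. Of the 16900 FLOX UMIs, 9533 lay in IgG cells, where Slpi stood at 20678 CPM against 5852 in VC IgG cells. Pooled within IgM cells, Slpi was 9347, 4632 and 3039 CPM for WT, FLOX and VC. Pooled within IgA cells it was 5557, 4755 and 3682 CPM, with VC lowest in both classes. By cell, the IgM medians were 4963, 2943 and 2122 CPM, again lowest in VC. The IgA medians were 3738, 796 and 2200 CPM, with FLOX lowest, and 202 of the 752 FLOX IgA UMIs lay in 1 cell. Spon1, an extracellular matrix protein, stood at 234, 142 and 66.9 CPM and was lowest in VC within IgM cells too, at 304, 127 and 74.5 CPM. Ngp, a neutrophil granule gene, was on the list because 203 of the 239 FLOX UMIs lay in 1 FLOX cell.

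The interferon-response genes Cxcl9 and Iigp1, which were high in other cells of the VC library, were low in its plasma cells. Cxcl9, a chemokine induced by interferon gamma, had 3238 CPM in the other gated cells of VC against 195 and 204 in WT and FLOX. In plasma cells it had 18.9 CPM in VC (11.5 to 29.1), at most 2 UMIs in a cell and in 19 of 78 cells, against 1.957 CPM in FLOX and no UMI in WT. Iigp1, an interferon-induced GTPase, likewise had 2189 CPM in the other cells of VC and 10.4 CPM in its plasma cells. The part of free RNA in these plasma cell counts was not tested. Of 8 tested interferon genes 2 were at least 1.5-fold higher in VC than in FLOX plasma cells and 0 lower, beside 2.17% higher and 1.5% lower over all genes. Against WT, 0 of the 8 were higher in VC and 5 lower, beside 14.7% and 14.9% of all genes. FLOX likewise had 0 higher and 5 lower than WT, beside 15.2% and 14% of all genes. Cxcl10 was 1 of the 2 genes higher in VC than in FLOX, at 84.6 CPM in FLOX and 132 in VC. Its WT level of 537 CPM came from 2 cells.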

How the data were processed

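The labels describe 3 droplet libraries made with a 10x v3.1 3′ kit, 1 for each genotype. The deposited values are raw UMI counts per gene and barcode for 31053 listed genes. Per the submitters' processing notes, Cell Ranger 2.1.1, Seurat 3.1 and mm10 were used, while the file headers name software version 3.1.0. Library totals were 56853574 UMIs (WT), 61758462 (FLOX) and 37361779 (VC) over 5718, 6529 and 3377 barcodes, before the filter of 500 genes and 10% mitochondrial UMIs.

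Counts of the selected cells were summed per library or per library and heavy chain class. CPM excluded 392 immunoglobulin genes. Levels carry exact Poisson and shares exact Clopper-Pearson 95% intervals. Folds of plasma cells over other gates used a pseudocount of 10 CPM. Class contrasts used edgeR 4.0.16 (filterByExpr, TMM, quasi-likelihood, library block, adjusted p threshold 0.05), with DESeq2 1.42.0 as an alternative. The scripts, in Python 3.11.15 and R 4.3.3, were tested on simulated data. A heavy chain class needed over 50% of at least 20 constant-region UMIs, and a variable gene over 50% of at least 5. Genes compared between genotypes had a mean of at least 50 CPM and 50 UMIs.

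Named genes are list members, the 12 with the largest ratio in each direction for VC, the 20 highest over other gates, and the 10 with the lowest adjusted p per direction of each class contrast. The members and lists were chosen with earlier results of these data known.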

Additional observations from a re-analysis of the deposited data

How the results depend on the processing

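The 3 libraries give no replicate of a genotype, so no difference between genotypes was tested, and 17 WT cells limit every WT value. No paired analysis was possible because each genotype has 1 library, apart from the class contrasts, where the library is the block. The 2 residual degrees of freedom there limit how firmly single genes are called. The cause of each change below was not tested unless fewer cells or genes make it.

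Shares, immunoglobulin medians and class use kept within their intervals with a Jchain minimum of 10 or 50 UMIs, a mitochondrial limit of 5% and a Cdh5 limit of 1 UMI. A gene minimum of 1000 took WT lambda use to 0%. Leaving out cells with 3 or more UMIs of other cell types' markers kept 1, 66 and 15 cells. Plasma cells were then 0.0232, 1.15 and 0.548% of WT, FLOX and VC cells. The WT immunoglobulin median was 45.8%, with IgM at 100%, IgA at 0% and lambda at 0%. FLOX had 77.3% IgM and 12.1% IgG, and VC 80% IgM and 0% IgG. In that setting 62 genes were lower in VC than in both, and 98 higher and 155 lower than in FLOX. The log2 VC/FLOX value was -1.50 for Hmgb2 and Il10, 0.47 for Hspa1a and -0.43 for Plac8.

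Without the 3 cells that stood apart, an alternative added after seeing the data, VC exceeded both for 9 genes and FLOX alone for 35. The log2 VC/FLOX values then reversed: Elane and Mpo -2.01, Gpx1 -0.042, Hist1h1b -0.85, Hmgb2 -0.10, Hmgn2 -0.52, Prtn3 and Top2a -2.71, Stmn1 -0.67 and Tuba4a -0.062. For Elane, Mpo, Prtn3 and Top2a nearly all VC UMIs lay in the VC cell left out (58 of 59 for Top2a). Their values therefore rest on very few UMIs and do not place VC below FLOX. In the class fit, 31 genes were then higher and 36 lower in IgG than in IgM. With IgM cells only, also added after seeing the data, VC exceeded both for 28 genes and lay below both for 27, with 93 and 66 against FLOX, and Ngp had a log2 VC/FLOX of 0.051.

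The counts for VC depended on the size rule. The numbers higher than both, lower than both, higher than FLOX and lower than FLOX were 7, 4, 26 and 4 with CPM of all UMIs, 62, 94, 194 and 211 with a minimum mean of 20 CPM, 88, 132, 262 and 326 with no minimum beyond 50 UMIs, and 6, 4, 13 and 4 with a fold of 2. With each cell weighted alike, 8 were higher than both and 60 lower than FLOX. Median-of-ratios scaling kept all 4 counts within 1.5 times. The median of all genes moved by under 0.1 (log2) in the scaling alternatives.

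For the classes, upper quartile normalization kept every count within 1.5 times. A minimum of 10 cells per sum is no check, since the smallest sum in the fit already held 10 cells and the fit was unchanged. DESeq2 called 8 genes higher and 17 lower for IgA over IgM, 6 and 4 for IgG over IgM, and 14 and 3 for IgG over IgA. With no replicate block these were 16 and 11, 1 and 2, and 1 and 1, and Ly6c2 for IgG over IgM was -0.035. With no filter on low counts beyond 10 UMIs, 101 were lower in IgA than in IgM, 51 higher and 71 lower in IgG than in IgM, and 75 higher in IgG than in IgA. Without the WT library, 26 were higher and 28 lower in IgG than in IgM. With over 80% of heavy-chain UMIs required, 10 were higher in IgG than in IgM, 19 higher and 13 lower in IgG than in IgA, and Cxcl10 for IgA over IgM was -0.0044. Fits without FLOX or without VC were not run, since they leave no residual degrees of freedom.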
